A study of Mus musculus with 24 samples.

Results

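The Cre+ libraries are the 12 of 24 libraries in which the OSKM factors (Oct4, Sox2, Klf4 and c-Myc) could be switched on in myofibres. They were ordered by a measured value, the level of Pou5f1 (the gene of Oct4) in each library, and every other gene was then read against that order. Whole extensor digitorum longus (EDL) and soleus (SOL) muscles of 2-month-old mice were sequenced after doxycycline (Dox, 1 mg/ml) in the drinking water for 2.5, for 5.5 or for 8.5 days. Each muscle and day had 2 Cre+ and 2 Cre- libraries, so that there were 6 Cre+ libraries of EDL and 6 of SOL. Cre+ mice were Acta1-Cre+/4Fhet and Cre- mice Acta1-Cre-/4Fhet. Both genotypes carried 1 copy of a Dox-dependent OSKM cassette (4F) and an rtTA trans-activator behind a loxP-flanked stop, and both drank Dox. Only Cre under the Acta1 promoter, which is active in striated muscle fibres, removed the stop. RNA came from the whole muscle, so fewer fibres of a kind and less RNA per fibre cannot be told apart.

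The 4 factors are the set that returns differentiated cells to pluripotency when they are expressed for long enough. Oct4 and Sox2 bind DNA together at composite sites, Klf4 binds GC-rich promoter elements, and c-Myc pairs with Max at E-boxes to drive growth genes. A brief or weak pulse changes the cell's transcripts without making it pluripotent, and how much a gene responds can depend on how much factor a cell receives. In muscle, the EDL holds mainly fast and the SOL mainly slow fibres.

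Library totals were 37834210 to 53041969 counts in the Cre+ group and 36088781 to 54679082 over all 24 libraries. Levels are given as FPKM, that is counts scaled by transcript length and by the total of the column. Changes are the log2 ratio of a Cre+ library to the mean of the 2 Cre- libraries of its muscle and day, with 0.1 FPKM added to both sides and libraries scaled by TMM (edgeR's trimmed mean of M-values). Scaling by column totals alone moved the median change of all genes by -0.00 to 0.35, with the highest value in EDL at 2.5 days, replicate 2.

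Pou5f1 ran over a wide range in the Cre+ libraries of both muscles. In EDL its level was 17.5 and 70.5 FPKM at 2.5 days, 1.02 and 27.7 FPKM at 5.5 days, and 76.2 and 57.7 FPKM at 8.5 days (replicates 1 and 2). In SOL it was 5.02 and 9.62 FPKM at 2.5 days, 0.0785 and 0.387 FPKM at 5.5 days, and 12.2 and 6.19 FPKM at 8.5 days. The highest EDL library stood 74.7-fold above the lowest, and the highest SOL library 156-fold above the lowest. Cre- libraries held 0 to 5 Pou5f1 counts each in EDL, up to 0.0896 FPKM, and 0 to 2 counts in SOL. The lowest SOL library had only 4 counts, where 3 counts stand for 0.0589 FPKM, so its level is near the limit that counting allows. The values chose the order and are given with no test.

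**Figure D1:**
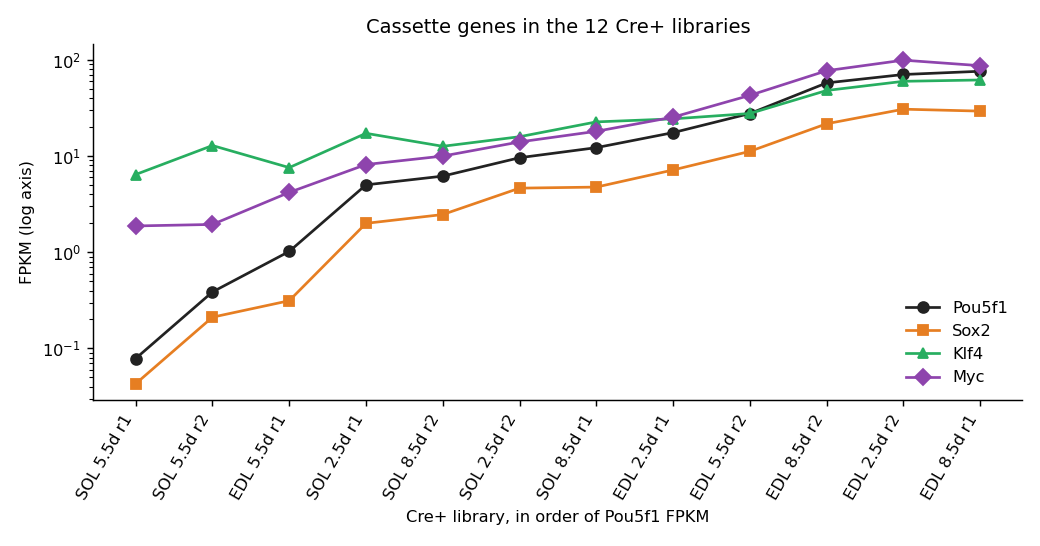
Levels of the cassette genes in FPKM (log axis) in the 12 Cre+ libraries ordered by Pou5f1. Cre- libraries are not drawn. The 3 lowest libraries are all of 5.5 days, and the 5 highest are all of EDL.

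Level and day were not separate in this order. The 3 lowest libraries, at 0.0785, 0.387 and 1.02 FPKM, were all of 5.5 days, and just 1 library of that day, EDL replicate 2 at 27.7 FPKM, was higher. Within a day, the same replicate number had more Pou5f1 in both muscles, namely replicate 2 at 2.5 and 5.5 days and replicate 1 at 8.5 days. The higher library exceeded the lower by 4.02-fold, 27.2-fold and 1.32-fold in EDL and by 1.92-fold, 4.92-fold and 1.98-fold in SOL at 2.5, 5.5 and 8.5 days.

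The other cassette genes followed Pou5f1 to different degrees. Sox2, the partner of Oct4, stayed at 0.307 to 0.546 of the Pou5f1 level in all 12 libraries. Myc, which has its own muscle transcript, stood at 1.14 to 1.63 times Pou5f1 in the 9 libraries with at least 5.02 FPKM of it. In the other 3 libraries, all of 5.5 days, Myc was 1.88 and 1.95 FPKM in SOL and 4.19 FPKM in EDL. Controls of that day held 1.34 and 1.25 FPKM in SOL and 2.63 and 2.94 FPKM in EDL. Over all Cre- libraries the range was 1.25 to 3.34 FPKM. Klf4 rose clear of its controls only in EDL. It was 6.43 FPKM in the lowest SOL library, under all SOL controls at 11.1 to 22.6 FPKM, and 12.6 to 22.7 FPKM in the other 5, which overlapped them. In EDL it was 7.59 FPKM in the lowest Cre+ library and 24.4, 27.7, 48.1, 59.9 and 61.9 FPKM in the others, against 7.02 to 17.0 FPKM in controls. Reads of the cassette and of the mouse's own genes were not separated in the counts.

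The number of genes that moved was highest in EDL libraries with much Pou5f1, but did not rise evenly with the level. Of 11309 genes averaging 1 FPKM or more, 163, 145 and 196 differed over 2-fold from the control mean in the 3 lowest libraries. A single Cre- library set against the other of its pair gave 147, 145 and 343 genes in EDL and 185, 153 and 229 in SOL, at 2.5, 5.5 and 8.5 days. Cre+ libraries were set against the mean of 2 controls, so the 2 kinds of count are not fully alike. The 3 lowest libraries stayed under the highest pair. Against the pair of their own muscle and day, 163 (SOL replicate 1) and 196 (EDL replicate 1) were higher and 145 was not. The next 4, all of SOL, gave 222, 127, 159 and 262 genes, also under the highest pair. Of these, 222 (2.5 days replicate 1) and 262 (8.5 days replicate 1) exceeded the SOL pair of their day. The 5 highest, all of EDL, gave 867, 262, 612, 1709 and 936 genes from the lower to the higher level. Just 4 of the 12 libraries, all of EDL, were above every control pair. EDL replicate 2 of 5.5 days was not, although it had more Pou5f1 than EDL replicate 1 of 2.5 days (27.7 against 17.5 FPKM) and 262 against 867 genes. Its 262 genes did exceed the 145 of the EDL control pair of 5.5 days.

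**Figure D2:**
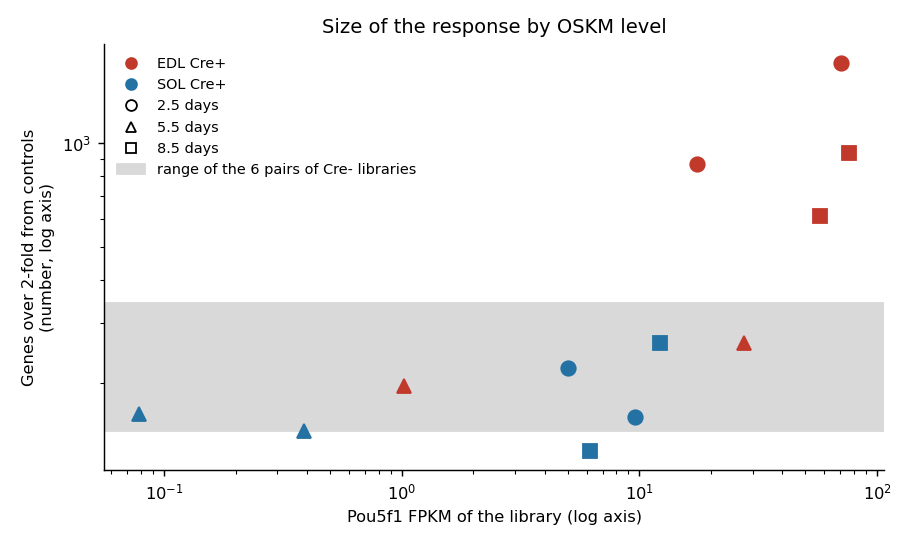
Number of genes over 2-fold from the control mean in each Cre+ library against its Pou5f1 level (FPKM, log axis), with the range of Cre- libraries set against each other. The 5.5-day EDL library at 27.7 FPKM sits at 262 genes, below the 2.5-day EDL library at 17.5 FPKM with 867.

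The same departure was seen gene by gene. The genes were those called as changed over 2-fold at the mean EDL level by the test described below, with an average of 1 FPKM or more. Of these, 327 had a mean change over 1.5 (log2) in the 3 highest EDL libraries. Among the 327, 304 (93.0%) changed less in EDL replicate 2 of 5.5 days than in EDL replicate 1 of 2.5 days. These genes were chosen on the EDL libraries, so the values describe them and carry no test. For the 365 genes called up over 2-fold at the mean EDL level, changes were set against their mean in the 3 highest EDL libraries. The median share was 18.9% in the lowest EDL library, 44.8% in EDL replicate 2 of 5.5 days and 100.2% in EDL replicate 1 of 2.5 days. SOL libraries of 2.5 and 8.5 days reached 16.7% to 33.1%, and those of 5.5 days 0.933% and 2.02%. For the 142 genes called down over 2-fold the corresponding shares were 27.7%, 46.0% and 90.5% in EDL, and 20.1% to 31.2% in SOL at 2.5 and 8.5 days.

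To find genes that follow the level within EDL, edgeR's quasi-likelihood test was fitted with a mean for each day, a Cre+ term and the change per doubling of Pou5f1 in the Cre+ libraries (12 EDL libraries). Of 15011 genes outside the cassette, 35 rose with the level (0.233%) and 17 fell (0.113%) at an adjusted p under 0.05. At an unadjusted p under 0.05 there were 2619. DESeq2 called 655, whereas edgeR called 0 with Cre+ libraries alone, 0 with a linear Pou5f1 level and 0 without the libraries of 5.5 days. The Cre+ term, which is the change at the mean level, was called for 1493 genes upwards (9.95%) and 1039 downwards (6.92%). Scaled by column totals without TMM, that split was 2631 upwards and 491 downwards. A bend in the line was called for 0 genes (367 at an unadjusted p under 0.05, and 5 by DESeq2).

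The count of 52 rests largely on the lowest EDL library, replicate 1 of 5.5 days. Without it 0 genes were called and 744 passed an unadjusted p under 0.05. All 52 slopes kept their sign, 49 of them were at least 0.5 of their full value, and the median ratio was 0.98. In this lowest EDL library Pou5f1 was 1.02 FPKM and Klf4, at 7.59 FPKM, lay within its controls. The study states that it removed samples lacking OSKM overexpression as outliers, without naming them, and it reports 2.5 and 8.5 days only. Leaving out EDL replicate 2 of 5.5 days, the library with few changed genes for its level, gave 180 genes. Of the other libraries, leaving out 1 gave 22 genes without Cre+ 2.5 days replicate 2, 26 without Cre+ 2.5 days replicate 1, 34 and 33 without Cre+ 8.5 days replicates 1 and 2, 23 and 21 without Cre- 5.5 days replicates 1 and 2, and 106 without Cre- 8.5 days replicate 1. Just inside the threshold lay Erbb2 (slope 0.21, adjusted p = 0.0477) and Stk11ip (slope 0.18, adjusted p = 0.0483), and just outside lay Actc1 (slope -0.50) and Lmod1 (slope -0.22), both at an adjusted p that rounds to 0.05.

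Cdkn1a (p21, a cyclin-dependent kinase inhibitor and p53 target, chr17:29093769-29100722, mm10) had a called slope, and its level followed the order of Pou5f1 more closely than its change did. In the 6 EDL Cre+ libraries from the lowest to the highest Pou5f1 it was 22.3, 89.2, 101, 130, 139 and 158 FPKM, and in the EDL controls 13.6 to 29.9 FPKM. The lowest library lay inside the control range, and the other 5 lay above it in the order of Pou5f1. Controls also differed by day, from 13.6 and 16.0 FPKM at 2.5 days to 29.5 and 29.9 FPKM at 8.5 days. As a change over the controls of its own day, Cdkn1a was -0.03 in the lowest library, 2.30 and 2.15 in the middle ones and 1.97, 2.87 and 2.16 in the top 3, which overlapped the middle. The slope was 0.40 ± 0.06 (SE) log2 per doubling, or 2.48 (95% interval 1.71 to 3.26) over the EDL range (adjusted p = 0.0138, edgeR). Without the lowest library the slope was 0.17, or 0.414 of its value, among just 3 of 52 genes under 0.5. In SOL, from the lowest to the highest level, Cdkn1a was 19.2, 25.3, 35.7, 72.0, 26.9 and 95.6 FPKM, with controls at 13.8 to 47.1 FPKM, so the groups overlapped. The SOL change of 0.50 ± 0.24 did not pass the test (adjusted p = 0.358, edgeR).

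Kcnk5, a tandem-pore potassium channel, was among the 3 of 35 graded genes that were also called in SOL, with the poorly described 2310022B05Rik and Anxa4 (annexin A4, a calcium-dependent membrane binder). In EDL, by rising Pou5f1, Kcnk5 was 1.33, 21.3, 8.50, 14.4, 22.8 and 26.7 FPKM, with controls at 0.490 to 0.951 FPKM. In SOL it was 0.307, 0.648, 3.02, 1.79, 4.31 and 4.06 FPKM, with controls at 0.340 to 0.580 FPKM. All 6 EDL libraries and all SOL libraries but the lowest were above their controls. The slope in EDL was 0.53 ± 0.09 (adjusted p = 0.0344), and 0.19 without the lowest library. The SOL change was 1.74 ± 0.37 (adjusted p = 0.0342).

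Klf3, a transcriptional repressor of the Krüppel-like family, rose from 3.22 FPKM in the lowest EDL library to 16.6, 19.9, 22.6, 35.3 and 18.0 FPKM, with controls at 1.54 to 3.05 FPKM. The highest value was in EDL replicate 2 of 2.5 days, not in the library with most Pou5f1. Its slope was 0.47 ± 0.08 (adjusted p = 0.0343, edgeR), and in SOL its change was 1.17 ± 0.32 (adjusted p = 0.0914).

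The metallothioneins Mt1 and Mt2, small proteins that bind zinc and copper, changed sign along the range. Mt1 in EDL was 15.2 FPKM in the lowest library and 77.0, 75.6, 79.9, 126 and 90.6 FPKM in the others, with controls at 18.0 to 38.3 FPKM. Its log2 change was -1.46 in the lowest EDL library and 0.86 to 1.78 in the others. The lowest SOL library also lay below its controls, with a change of -1.39. The slopes were 0.48 ± 0.07 for Mt1 (adjusted p = 0.0119) and 0.56 ± 0.09 for Mt2 (adjusted p = 0.0314). In SOL neither passed the test (Mt1 -0.23, adjusted p = 0.764 and Mt2 0.26, adjusted p = 0.789, edgeR).

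The steepest slopes belonged to transcripts that were nearly absent from control muscle. Phox2a, a homeodomain factor of autonomic neurons, was 0.0535, 1.54, 1.65, 2.88, 10.1 and 2.84 FPKM in EDL by rising Pou5f1, with controls at 0 to 0.150 FPKM (slope 1.04 ± 0.16, adjusted p = 0.0222). Bhlha15 (Mist1, a factor of secretory cells) was 0.0369, 2.10, 0.380, 1.24, 11.4 and 1.57 FPKM, with controls at 0 to 0.0324 FPKM (slope 0.84 ± 0.15, adjusted p = 0.0362). Shc2, a signalling adaptor, was 1.20, 20.9, 7.43, 21.5, 63.0 and 22.7 FPKM, with controls at 0.543 to 1.13 FPKM (slope 0.60 ± 0.08, adjusted p = 0.0119). In the lowest library Phox2a and Bhlha15 were near controls, whereas Shc2 was above all EDL controls, with a change of 0.82. For all 3 genes EDL replicate 2 of 2.5 days held the highest value. Kcnh4, a voltage-gated potassium channel below 1 FPKM on average, followed the same order with a slope of 1.14 (adjusted p = 0.0118).

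Mnt, a Max partner that represses at E-boxes, rose in small steps. In EDL it was 4.39, 6.30, 7.83, 8.78, 8.94 and 10.2 FPKM in the exact order of Pou5f1, with controls at 3.47 to 5.15 FPKM. The slope was 0.19 ± 0.03 (adjusted p = 0.0222). In SOL its log2 change ran from -0.73 to 0.25 and its average of -0.10 did not pass the test (adjusted p = 0.817).

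Since c-Myc and Mnt share the E-box, promoters of the graded genes were searched for CACGTG on both strands, in the 250 bases before each start (RefSeq, GRCm38.p6, which is mm10). It was found in 4 of 32 upward genes with a window (12.5%), in 1 of 14 downward genes (7.143%) and in 1087 of 11429 genes tested (9.511%). The octamer ATGCAAAT and the Klf element GGGTGTGG were in 0 of both graded sets, against 1.531% and 4.112% of all genes. Of the genes over 2-fold up in all 8 libraries of 2.5 and 8.5 days, which are described further on, 23 had a window, and 4 of these (17.39%) held the Klf element, 3 (13.04%) the E-box and 0 the octamer. The sequences around the E-box of the 4 upward genes are shown because they are where the Myc network's motif stands in the genes that rose with the level. Capitals mark the motif, which lies 36, 87, 123 and 174 bases before the start:
Cnksr1 (chr4:134238418-134238447, minus strand): tacctggttggcCACGTGggcccaggtatg
Kcnh4 (chr11:100759848-100759877, minus strand): ccggtgcggagcCACGTGgtgggcgcgggc
Mnt (chr11:74830789-74830818, plus strand): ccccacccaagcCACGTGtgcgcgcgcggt
Sec22c (chr9:121705186-121705215, minus strand): aggtgagactcgCACGTGggcctggggacc

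Among the downward genes, 3 non-coding RNAs of 1 imprinted cluster fell together. Meg3 (chr12:109540996-109571729), Rian (chr12:109603945-109661711) and Mirg (chr12:109734981-109749457) are made from the maternal chromosome and host many small RNAs. Meg3 in EDL was 54.3, 34.6, 15.9, 22.7, 24.6 and 26 FPKM by rising Pou5f1, with controls at 32.7 to 62.4 FPKM. The lowest library and EDL replicate 1 of 2.5 days were inside the control range, and the other 4 lay below it. The log2 changes were 0.41, -1.01, -1.34, -1.43, -1.58 and -1.33. The slopes were -0.32 ± 0.04 for Meg3 (adjusted p = 0.00644), -0.31 ± 0.03 for Rian (adjusted p = 0.00131) and -0.33 ± 0.04 for Mirg (adjusted p = 0.0114, edgeR). Over the 12 Cre+ libraries the changes of Meg3 and Rian went together with r = 0.979, a description over libraries that share controls.

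In SOL the same RNAs lay on both sides of 0. By rising Pou5f1 the change of Meg3 was 0.59, 0.30, 0.04, -0.20, -0.32 and -0.28, and that of Mirg 0.38, 0.56, 0.13, -0.35, -0.61 and -0.56. The SOL averages were 0.03 ± 0.21 for Meg3 (adjusted p = 0.968) and -0.05 ± 0.24 for Mirg (adjusted p = 0.952), so neither passed the test.

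Rhbdl1, a rhomboid-family serine protease, was strongly reduced. In EDL it was 16.2, 3.53, 5.41, 2.87, 3.49 and 2.47 FPKM, with controls at 15.5 to 24.8 FPKM. All but the lowest Cre+ library were below every control, and the slope was -0.43 ± 0.06 (adjusted p = 0.0169). In SOL it was 10.4, 10.9, 7.43, 7.31, 6.11 and 6.58 FPKM, with controls at 9.06 to 13.1 FPKM. The 4 SOL libraries of 2.5 and 8.5 days were below all SOL controls and those of 5.5 days were not. The SOL change of -0.63 ± 0.18 missed the threshold (adjusted p = 0.114).

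**Figure D3:**
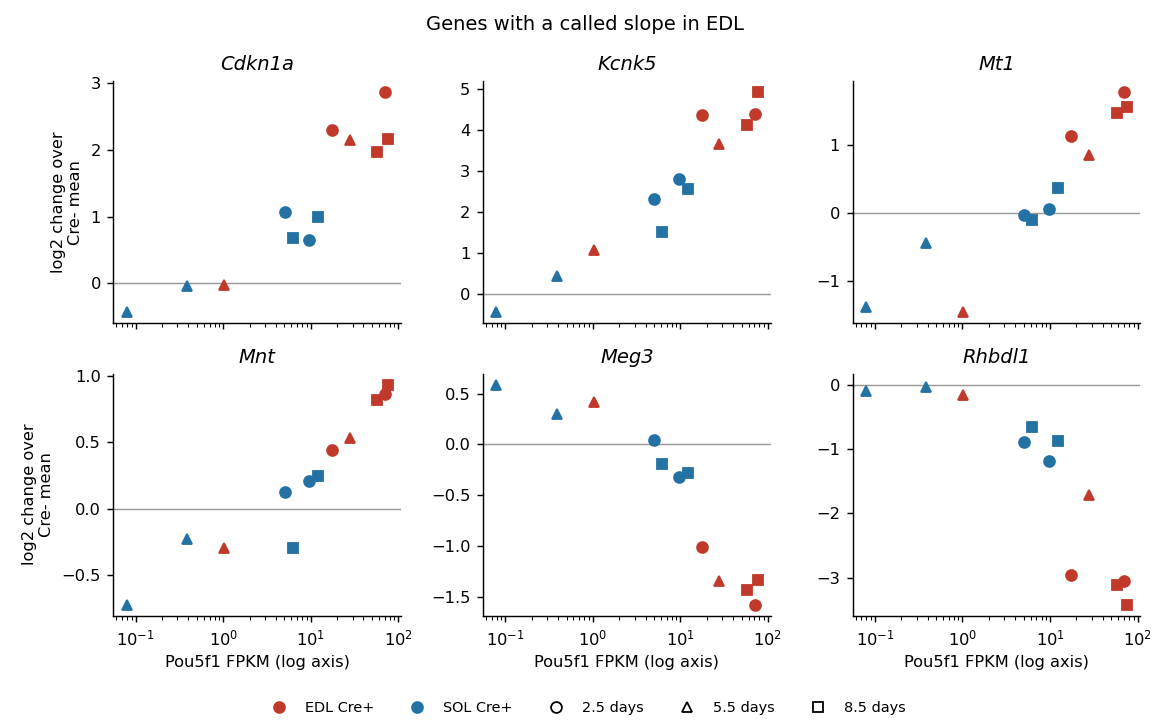
Log2 change over the control mean against Pou5f1 (FPKM, log axis) in the 12 Cre+ libraries for Cdkn1a, Kcnk5, Mt1, Mnt, Meg3 and Rhbdl1, with EDL and SOL libraries marked apart. In EDL, 4 of the 6 genes rise and 2 fall along the axis, and the lowest EDL library lies between -1.46 (Mt1) and 1.06 (Kcnk5).

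For several called slopes the lowest EDL library stood well apart from its own controls, while most of the others lay near theirs. Pdk4, a kinase that inhibits pyruvate dehydrogenase, had a change of -1.99 in the lowest EDL library. It was at -0.33 to 0.94 in the other 5 (slope 0.39, adjusted p = 0.0138, edgeR). Egr1, an immediate-early factor, was at 3.27 in the lowest library and at -0.15 to 1.20 in the others (slope -0.48, adjusted p = 0.0118). The mast cell proteases Mcpt4 and Cma1 were at 1.67 and 1.59 there and at -0.10 to 0.51 in the others. Without that library the slopes were 0.47 for Pdk4, -0.31 for Egr1, -0.24 for Mcpt4 and -0.26 for Cma1, of the same sign and with no call. In that library the fibroblast markers summed to 1749 FPKM against 940 in its controls, and the erythroid markers to 2070 against 639. The fibroblast matrix genes Lum and Dpt were among the 17 falling slopes. The part of these cell types, and of the low controls, in the slopes was not tested.

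Across the graded genes, the lowest EDL library was within 0.5 (log2) of its controls for 19 of the 35 upward and 7 of the 17 downward genes. The 3 highest EDL libraries all lay beyond both middle ones for 24 of 35 and 14 of 17. SOL libraries were not used to choose these genes. There, 3 of the 35 upward genes were called up (8.57%), where 0.517% of 15474 genes tested were called, and 0 of the 17 downward genes were called down, where 0.11% were. The median SOL change was 0.45 for the upward genes and 0.10 for the downward genes, beside -0.00 for all genes. Within each SOL day, the library with more Pou5f1 had the higher change at all 3 days for 15 of the 35 upward genes (42.9%), against 12.1% of all genes. It had the lower change at all 3 days for 6 of the 17 downward genes (35.3%), against 13.0% of all genes. The same replicate number held more Pou5f1 in both muscles on every day, and same-numbered EDL and SOL libraries deviated together (r of 0.169 to 0.443 over genes, in 6 pairs). The SOL shares are therefore not independent of the EDL libraries that chose the genes, and the shares over all genes do not stand for no effect.

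Beyond the slope, 5 genes that went most closely with Pou5f1 over all 12 Cre+ libraries were Uvrag (an autophagy factor, r = 0.98), Stk11ip (r = 0.97), Zfp646 (r = 0.96), Kcnk5 (r = 0.96) and Sec22c (a membrane traffic protein, r = 0.95). Likeness did not mean size. The changes of Uvrag ran only from -0.33 in the lowest library to 0.38, and those of Zfp646 from -0.41 to 0.53, whereas Kcnk5 ran from -0.46 to 4.93.

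A plateau was much rarer than a slope that could not be settled. Just 3 genes upwards (Aldh1b1, Grhl3 and Gm6880) and 1 downwards (Med26) had a called change and no called slope, with a tight interval for the slope over the range. That interval had to stay within plus or minus 0.5 times the change, so a large change allows some rise or fall. Another 1454 genes upwards and 1031 downwards were called at the mean level with a slope neither called nor bounded so tightly.

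Aldh1b1, a mitochondrial aldehyde dehydrogenase (chr4:45799022-45804608), met the plateau rule through its large change but was not flat. In EDL it was 9.45, 57.4, 16.4, 73.8, 35.6 and 84.9 FPKM by rising Pou5f1, with controls at 0.353 to 0.760 FPKM. Every Cre+ EDL library was far above every control, the lowest included, which had a log2 change of 4.21 at 1.02 FPKM of Pou5f1. The other 5 were at 5.01 to 6.40. The slope was 0.18 ± 0.08 (adjusted p = 0.271, edgeR), or 1.14 over the range, against a change of 5.81 at the mean level. The 95% interval of 0.04 to 2.23 over the range lay above 0, so a rise with the level is not excluded. In SOL it was 2.33, 2.11, 35.6, 21.4, 15.9 and 47.5 FPKM, with controls at 1.16 to 3.53 FPKM, and the average change of 2.35 ± 0.24 passed the test (adjusted p = 7.58e-05). The SOL libraries of 5.5 days were inside their control range.

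Med26, a subunit of the Mediator complex that links it to elongation factors, was lowered by a like amount at every EDL level. Its changes in EDL were -1.04, -0.98, -0.80, -1.23, -1.15 and -1.05 by rising Pou5f1 (slope 0.00, adjusted p = 0.999, change at the mean level -1.04 ± 0.08). In SOL all 6 changes were below 0, from -0.66 to -0.13, and their average of -0.43 ± 0.07 was under the fold threshold of 0.5 (adjusted p = 0.00998).

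Other genes were already well away from controls in the lowest EDL library. Of the 327 genes called over 2-fold at the mean level and with a mean change over 1.5 in the 3 highest libraries, 22 (6.73%) had over 50% of that change there. The following were chosen after their values were seen. Serpinb1a, an inhibitor of neutrophil proteases, had a change of 2.50 in the lowest EDL library, 60.8% of its mean in the top 3, and 2.58 to 3.52 in the SOL libraries of 2.5 and 8.5 days. Gng13, a G protein gamma subunit, had a change of 4.24 there and 7.46 to 9.37 in the other 5 EDL libraries. Mpp1, a membrane scaffold protein, had 78.0% of its top change, and Slc25a25, a mitochondrial ATP-Mg carrier, fell by 2.48, which was 74.1% of its top change.

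Genes that ignored the level were the largest settled class. For 5306 of 15011 genes (35.3%) the interval of the change at the mean level lay within 0.5 of 0 and that of the slope over the range within 1. The 6 most abundant were Atp2a1 (the fast calcium pump SERCA1), Gapdh (a glycolytic enzyme), Tpt1, Rplp1 (a ribosomal stalk protein), Cst3 (a cysteine protease inhibitor) and Cryab (a small heat shock protein). Gapdh in EDL had changes of 0.02, -0.26, 0.06, 0.09, -0.63 and -0.09 by rising Pou5f1, with an average of -0.10 ± 0.13. Atp2a1 had changes of -0.42 to 0.08 in EDL. In both, the most negative value was in EDL replicate 2 of 2.5 days. In SOL, 2 of the 5306 were called up and 1 down.

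The SOL genes were largely among the EDL genes, and the reverse did not hold. Of the 80 genes called up in SOL (0.517%), 70 were also called up in EDL, which is 87.5% of the SOL genes and 4.69% of the EDL genes. Of the 17 called down in SOL, 14 (82.4%) were called down in EDL, which is 1.35% of the EDL genes. Among the 1454 genes called up in EDL with an unsettled slope, 65 were called up and 0 down in SOL, and 1251 had a SOL change above 0. Without 1 SOL library at a time, the count of 97 SOL genes fell to 58, 47, 49, 52 and 52 without Cre- 2.5 days replicate 1, Cre- 5.5 days replicate 1, and replicate 1 of Cre+ 2.5, 5.5 and 8.5 days.

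Whether SOL changed as an EDL muscle of equal Pou5f1 would was tested as an offset from a line shared by the muscles over all 24 libraries. Pou5f1 was 1.02 FPKM and then 17.5 FPKM or more in EDL, but up to 0.387 FPKM and 5.02 to 12.2 FPKM in SOL. The muscles therefore had no libraries of like level, and the offset rests on the line. A lack of calls does not show that they respond alike. The offset was called for 0 of 15474 genes by edgeR (1906 at an unadjusted p under 0.05, and 152 by DESeq2), and for 2 with the muscles of 1 number as a replicate block (voom). Leaving out EDL Cre+ replicate 1 of 5.5 days gave 15 genes and EDL Cre+ replicate 2 of 2.5 days 11. A slope within SOL was called for 0 of 14994 genes (1505 at an unadjusted p under 0.05, and 125 by DESeq2), and for 6 without SOL Cre+ replicate 2 of 8.5 days. The offset of Aldh1b1 was -2.34 ± 0.47 (adjusted p = 0.0959) and that of Shc2 -2.03 ± 0.49 (adjusted p = 0.115). For Cdkn1a it was -0.47 ± 0.26 (adjusted p = 0.480) and for Kcnk5 -0.60 ± 0.33 (adjusted p = 0.474).

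A small set of 32 genes was over 2-fold from controls in all 8 Cre+ libraries of 2.5 and 8.5 days, 30 of them up and 2 down, at Pou5f1 levels from 5.02 to 76.2 FPKM. They were chosen by those libraries after the data were seen. In the libraries of 5.5 days, which did not choose them, 0 and 5 were over 2-fold in SOL and 9 and 25 in EDL, for replicates 1 and 2. The median change of the 30 was 0.16, 0.36 and 0.68 in the 3 lowest libraries and 1.67 in EDL replicate 2 of 5.5 days, beside 1.5 to 2.45 in SOL and 2.95 to 3.80 in EDL at the other days. Values at 2.5 and 8.5 days are raised by the choice of genes and those at 5.5 days are not, so the days cannot be compared by them.

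For some of these 32, the difference lay in the controls. AA465934, which overlaps AI450353 on chromosome 11 (chr11:83291699-83294637), was 16.2 to 49.9 FPKM in all 12 Cre+ libraries. Its Cre- libraries held 0.685 to 1.64 FPKM at 2.5 and 8.5 days but 29.0 to 65.5 FPKM at 5.5 days. The Cre+ libraries of 5.5 days therefore overlapped or lay below their own controls. Gdpd3, a lysophospholipase D, was 0.293 to 1.22 FPKM in all Cre+ libraries and high in only 4 Cre- libraries, replicate 2 of 2.5 and 8.5 days in both muscles, at 19.5 to 38.1 FPKM. Of 11330 genes, AA465934 was the only one over 4-fold higher, and Col3a1 (type III collagen) the only one over 4-fold lower, in the 5.5-day controls of both muscles than in the other controls. What sets these controls apart was not tested.

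Hddc3, related to bacterial hydrolases of the alarmone ppGpp, differed by day with even controls. It was 22 to 37.8 FPKM in all 8 Cre+ libraries of 2.5 and 8.5 days and 6.01 to 7.38 FPKM in the 4 of 5.5 days, while all 12 controls held 5.14 to 8.54 FPKM. The groups did not overlap, and EDL replicate 2 of 5.5 days was with the controls at 27.7 FPKM of Pou5f1, where SOL libraries at 5.02 to 12.2 FPKM were raised. The SOL change of 1.05 ± 0.08 passed the test (adjusted p = 3.53e-06), as did the EDL change at the mean level of 1.35 ± 0.24 (adjusted p = 0.00189). Hddc3 was chosen after its values were seen. Its values did not follow the order of Pou5f1, and what sets the Cre+ libraries of 5.5 days apart was not tested.

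**Figure D4:**
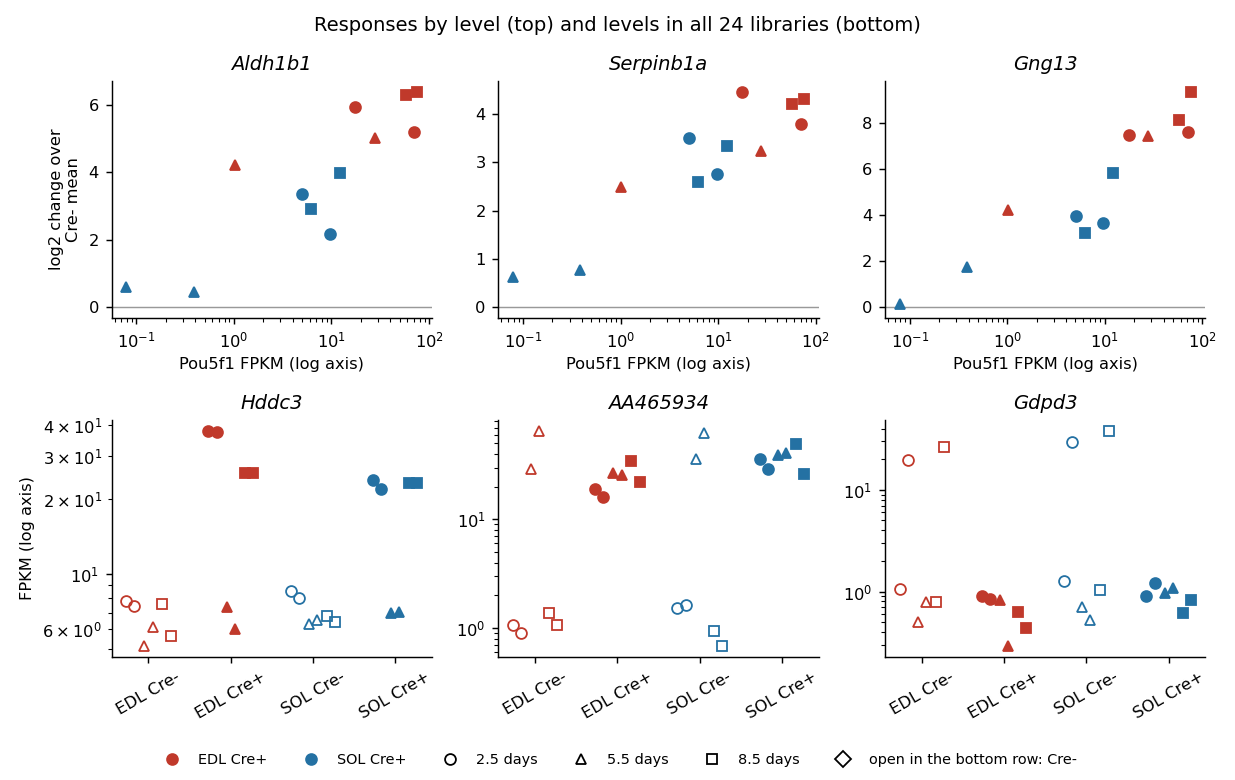
Top row, log2 change against Pou5f1 (FPKM, log axis) of Aldh1b1, Serpinb1a and Gng13 in the 12 Cre+ libraries, which are already at 2.50 to 4.24 in the lowest EDL library. Bottom row, FPKM of Hddc3, AA465934 and Gdpd3 in all 24 libraries (open symbols are Cre-), where Hddc3 is high in 8 Cre+ libraries and AA465934 is low in 8 Cre- libraries.

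Gene lists were read by the change at the mean EDL level and by their slopes, beside 9.95% of all 15011 genes called up, 6.92% called down and 7291 slopes above 0. Respiratory chain genes were lowered with a slope that pointed one way. Of 53 oxidative phosphorylation genes, 39 fell (73.6%) and 0 rose at the mean level, with a median of -0.57 beside -0.00 for all genes, and all 53 slopes were below 0 although 0 were called. By rising Pou5f1 the list's median change in EDL was -0.23, -0.76, -0.31, -0.59, -0.75 and -0.97. The SOL medians were 0.01, 0.10, -0.42, -0.15, -0.48 and -0.27. EDL replicate 2 of 5.5 days was again nearer to 0 than the libraries on both sides of it. Cox6a2, the muscle subunit of cytochrome oxidase, fell by 0.81 ± 0.11 (adjusted p = 0.000551) and in SOL had a change of -0.35 ± 0.10 (adjusted p = 0.0911).

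Glycolytic genes followed. Of 28, 16 fell (57.1%) and 2 rose, with a median of -0.61. Among them Phkg1, the catalytic subunit of phosphorylase kinase, fell by 1.51 and Gpd1, a glycerol phosphate dehydrogenase, by 1.33. The list's median was -0.16, -0.67, -0.34, -0.51, -1.27 and -0.67 in EDL by rising Pou5f1, lowest in replicate 2 of 2.5 days. Of 36 genes of the TCA cycle and fatty acid oxidation, 12 fell (33.3%) and 1, Idh2, rose.

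Fast fibre genes fell for 7 of 20 (35%), among them Pvalb (parvalbumin, a calcium buffer) by 1.03 and Tnni2 (fast troponin I) by 0.79. Of 16 slow fibre genes 0 were called. The median at the mean level was -0.46 for the fast and -0.26 for the slow list. By rising Pou5f1 the slow list's median in EDL was -0.28, -0.72, -0.11, -0.33, 0.11 and -0.49. Myl2, a slow fibre gene, spread from 47.0 to 589 FPKM in EDL controls, so 0 calls do not show that slow genes were unchanged. Of 26 other sarcomere genes 10 fell (38.5%) and 2 rose. Acta1, the skeletal actin whose promoter also drives Cre here, fell by 0.81 ± 0.15 (adjusted p = 0.00214). Of 10 myofibre markers 7 fell (70%).

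Ribosome biogenesis genes, textbook Myc targets, moved the other way. Of 46, 12 rose (26.1%) and 0 fell, with a median of 0.37, and all 46 slopes were above 0 with 0 called. In EDL the list's median change was -0.13, 0.26, 0.20, 0.38, 0.87 and 0.36, with the top value in replicate 2 of 2.5 days. SOL medians ran from -0.12 to 0.21. Utp18, of the small subunit processome, rose by 1.29, Polr1e, of RNA polymerase I, by 0.96, and Ncl (nucleolin) by 0.58 ± 0.13 (adjusted p = 0.00573, slope 0.15, adjusted p = 0.172). Of 28 genes of nucleotide, polyamine and one-carbon synthesis 7 rose (25%) and 0 fell, with Mthfd1l, of mitochondrial folate metabolism, at 1.27 and Srm, spermidine synthase, at 0.99.

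**Figure D5:**
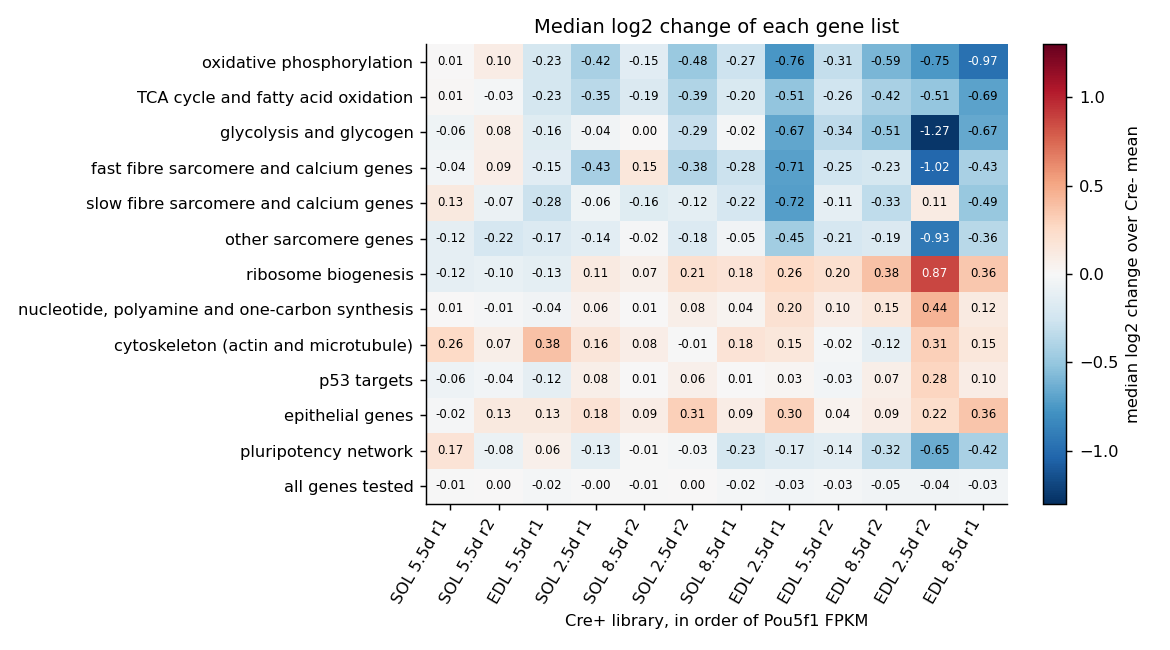
Heatmap of the median log2 change of gene lists (rows) in each of the 12 Cre+ libraries (columns, in order of Pou5f1 FPKM, with the muscle in the label). The oxidative phosphorylation list ends at -0.97 and the ribosome biogenesis list at 0.36 in the EDL library with most Pou5f1.

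Epithelial genes rose for 7 of 20 tested (35%) and fell for 0, some of them from near absence. The keratin Krt7 was 0.0545, 5.31, 0.225, 4.07, 35.6 and 6.20 FPKM in EDL by rising Pou5f1, with controls at 0.0418 to 0.0929 FPKM. Envoplakin (Evpl) was 0.0606, 9.17, 0.635, 1.66, 18.2 and 3.08 FPKM, with controls at 0.0218 to 0.0924 FPKM. Both were at control level in the lowest library and low in EDL replicate 2 of 5.5 days, and neither slope was called (Krt7 1.06, adjusted p = 0.120 and Evpl 0.66, adjusted p = 0.110, edgeR). Grhl3, an epidermal factor, had a change of 5.50 at the mean level and 4.67 in SOL (adjusted p = 0.00172), the only epithelial gene called there.

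Of 34 cytoskeletal genes 8 rose (23.5%), 5 of them tubulins. Tubb4b, a beta tubulin, rose by 1.83 ± 0.14 in EDL and by 0.89 ± 0.15 in SOL (adjusted p = 0.00973), where Tuba1c was also called (0.71, adjusted p = 0.0379). Of 33 cell cycle genes 4 rose (12.1%), a share near that of all genes, among them the S-phase factors E2f1 (1.11) and Ccne1 (1.09). Of 27 p53 targets 4 rose (14.8%) and 2 fell (7.41%), again near the shares of all genes, and Cdkn1a was the only one with a called slope. The other 3 that rose were Eda2r (0.99), Bbc3 (0.86) and Zmat3 (0.56). The medians of the p53 targets (-0.04), the integrated stress response (-0.13), denervation genes (-0.18) and atrophy genes (-0.03) were above 0 with library size alone, so no direction is given for them. Their calls were 4 up and 4 down of 20 stress genes (20% each way), 3 up (13%) and 5 down (21.7%) of 23 denervation genes, and 1 up (5.88%) and 3 down (17.6%) of 17 atrophy genes. Klf15, a glucocorticoid-induced factor of the last list, fell by 1.02 in EDL and by 0.57 in SOL (adjusted p = 0.0135).

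Of 30 genes of the pluripotency network outside the cassette, 13 passed the count filter, of which 2 rose (Lefty1 by 1.91 and Tet1 by 1.03) and 3 fell (Tfcp2l1, Klf2 and Sall4, the last by 0.51). None had a called slope.

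Among genes of the satellite cell niche, Wnt4, Wnt2b, Itga7 and Sdc4, which the study names, were read with Cdkn1a. Of these 5 genes, 4 rose and 1 fell at the mean EDL level. The study named them from these samples, so their directions are not independent evidence. Wnt4, a secreted ligand that keeps satellite cells quiescent, was 6.29, 1.5, 4.33, 2.48, 1.95 and 2.08 FPKM in EDL by rising Pou5f1, with controls at 6.20 to 13.5 FPKM. The lowest library was at the bottom of the control range of all days, and the other 5 were below that range. Against its own day, the lowest library at 6.29 FPKM lay under both EDL controls of 5.5 days, the lower of which held 9.61 FPKM. The change at the mean level was -2.00 ± 0.18 and the slope -0.20 ± 0.06 (adjusted p = 0.159, edgeR). Without both 5.5-day Cre+ libraries the slope was 0.05. In SOL the change was -0.80 ± 0.19 (adjusted p = 0.0546).

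Itga7, an integrin of the fibre surface and of satellite cells, had changes of 0.29, 2.01, 0.55, 1.18, 2.38 and 1.78 in EDL by rising Pou5f1 (1.41 ± 0.20 at the mean level, adjusted p = 0.000548). In SOL they were -0.28 to 0.37 (0.09 ± 0.11, adjusted p = 0.768). Wnt2b, another secreted Wnt, was 0.198 to 0.674 FPKM in 5 EDL libraries and 3.85 FPKM in replicate 2 of 2.5 days, with controls at 0.0825 to 0.202 FPKM. Sdc4, a heparan sulphate proteoglycan, was 12.3, 29.3, 27.4, 35.7, 39.2 and 36.4 FPKM in EDL, with controls at 9.85 to 17.0 FPKM, so that only the lowest library overlapped them. Its change at the mean level was 1.04 ± 0.11 and its slope 0.19 ± 0.04 (adjusted p = 0.0924). Itga7 and Sdc4 were also the 2 of 11 satellite cell markers that were called. Of 14 macrophage, 11 endothelial and 10 fibroblast markers 0 were called at the mean level, while 3 of 9 Schwann cell and 7 of 12 liver markers were called down. The liver gene Alb was 2.44 and 3.68 FPKM in the EDL controls of 8.5 days but 0.170 to 0.519 in the other EDL controls. The 12 Cre+ libraries held 0.166 to 1.15 FPKM, so its difference lay in the 8.5-day controls. The part of other cells in these values was not tested.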

How the data were processed

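Stranded single-end polyA libraries were aligned by the authors with STAR 2.5.3a to mm10 and counted with HOMER over RefSeq transcripts, and the deposited table holds raw counts for 24537 genes (20712 protein coding, 394 with several copies) with transcript lengths. Reads were checked by the authors with FastQC 0.11.2. The mapping of shared reads to near-identical copies is not given in the sources used here. All 24 count columns were used. FPKM was computed from count, length and column total. The study describes the 2 libraries of a group as independent biological samples, for the 2.5- and 8.5-day groups it shows. It removed samples lacking OSKM overexpression as outliers, whereas none was removed here. The labels do not name the mice, so p-values measure the spread between these libraries.

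Genes were kept by filterByExpr (minimum count 10). Tests were edgeR 4.0.16 quasi-likelihood F tests with TMM (limma 3.58.1, R 4.3.3) and Benjamini-Hochberg adjustment at 0.05, with an absolute log2 change over 0.5 for the Cre+ term, the SOL contrast and the offset. Slopes were fitted on 12 libraries of a muscle, and the SOL contrast and the offset on 24. The 95% intervals are from the same fits. The scripts were tested on simulated data. Intervals and floors on single counts cover counting error only.

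The groups came from the labels. The members, gene lists, motifs and tests were chosen with earlier results of these data known. Genes named are the cassette, the 10 largest called slopes each way with a mean of at least 1 FPKM, the plateau genes, the 6 most abundant genes that ignored the level, the 3 most abundant tested members of each list, the largest offsets and curvatures, the genes the study names, and the 5 genes most like Pou5f1. Other genes, Kcnh4, Mnt, Anxa4, Erbb2, Cnksr1 and Sec22c among them, and list members given as examples, were chosen after their values were seen.

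Deviations of same-numbered EDL and SOL libraries from their group means correlated at 0.169 to 0.443 in 6 pairs over 15478 genes, so a number pairs the muscles. Those of Cre+ and Cre- libraries of 1 muscle correlated at -0.162 to 0.0463, so it does not pair the genotypes. Alternatives were DESeq2 1.42.0, other scalings, filters and level measures, the replicate block, fits without Cre- or without 5.5-day libraries, and leaving out each library.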

Additional observations from a re-analysis of the deposited data

Results flagged for a closer look

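In Sdc4, every EDL Cre+ library but none of SOL moved up. The mean change was 1.01 over 6 EDL libraries and -0.27 over 6 SOL libraries, a difference of 1.28 (log2). The offset of SOL at equal Pou5f1 was -0.87 ± 0.26 and did not pass the test (adjusted p = 0.193, edgeR). In SOL the 6 changes were -0.65, -0.11, -0.04, -0.70, -0.09 and -0.03 by rising Pou5f1, of which 4 were within 0.11 of 0.

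In Nme2, a nucleoside diphosphate kinase of the nucleotide synthesis list, the 6 EDL changes were 0.02 to 0.40 and the 6 SOL changes -0.30 to -0.03. The means were 0.18 and -0.16, a difference of 0.336. Its offset was -0.30 ± 0.11 (adjusted p = 0.279, edgeR), and its change at the mean EDL level was 0.21 (adjusted p = 0.056), so it stayed under both thresholds.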

How the results depend on the processing

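The 52 slope calls in EDL became 655 with DESeq2, and 0 with the linear Pou5f1 level, with Cre+ libraries alone, without the libraries of 5.5 days, or without the 5.5-day Cre+ libraries with controls kept, the last chosen after seeing the data. Leaving out 1 library gave 0 to 180. Dpt (0.0039) and Vcan (0.12) turned upwards in Cre+ libraries alone, and Wnt4 had a slope of 0.0528 without the 5.5-day Cre+ libraries (controls kept) and 0.0532 without all libraries of that day. The Cre+ term ranged from 2047 to 2882 calls without 1 library. Curvature was called for 5 genes with DESeq2 and 0 to 3 without 1 library. In SOL, slopes were called for 125 genes with DESeq2, 3 with the replicate block and 0 to 6 without 1 library, and the contrast gave 219 with DESeq2 and 47 to 122 without 1 library. The offset gave 152 with DESeq2, 2 each with library size alone, without the count filter and with the replicate block of the muscles (voom, correlation 0.158), and 0 to 15 without 1 library. The replicate block of Cre+ and Cre- libraries, which share only a number, gave 35 slope calls in EDL and 106 in the SOL contrast. The cause of these shifts was not tested. Where a day had 1 library left in a group, it is assumed to vary like the others. Depth limits the lowest SOL library, whose Pou5f1 rests on 4 counts, and 2 libraries a group and the tie of level to day limit every slope.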
